A study of Mus musculus with 4 samples.

Results

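The matrix metalloproteinases Mmp2, Mmp3, Mmp9, Mmp10, Mmp11, Mmp13 and Mmp14 and the tissue inhibitors of metalloproteinases Timp1, Timp2 and Timp3 were examined in mouse mammary cells grown with or without Wnt3A. The 10 genes, of 18193 in all, were followed through the probe sets whose only gene symbol in the platform annotation was 1 of them. This gave 22 of the 45037 probe sets tested, 11 for the 7 metalloproteinases and 11 for the 3 inhibitors. All 10 genes were represented.

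The cells came from mammary glands of virgin CD1 females aged 8 to 12 weeks. They had been sorted as lineage-negative (CD31, CD45 and TER119), CD24+ and CD29hi, a gate for the basal compartment that is enriched in mammary stem cells. Sorted cells were cultured in growth factor reduced Matrigel with 50 ng/ml EGF in both groups, and the medium held either 200 ng/ml purified Wnt3A, an activator of canonical Wnt signalling, or vehicle (CHAPS in PBS, written "vesicle" in the sample names). Colonies of passage 2 were harvested for RNA at 6 to 7 days, and the RNA was hybridised to Affymetrix Mouse Genome arrays of 1 colour. There were 2 arrays per group, control 1 and 2 and Wnt3A 1 and 2. Whether the 2 arrays of a group stand for separate cultures or animals is not stated, so the p-values reflect variation among these samples, possibly technical. Where a value is given for each array, array 1 of a group comes before array 2.

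Metalloproteinases are zinc endopeptidases that cleave collagens, laminins, fibronectin and other matrix proteins. Most are secreted as inactive zymogens, and a few are anchored in the membrane. The tissue inhibitors bind the active site and block it. In the mammary gland both families take part in ductal invasion into the fat pad, in side branching and in involution after lactation. Matrigel is itself rich in substrates of these enzymes, among them laminin and type IV collagen.

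Each value is a log2 signal minus the median of its probe set over the 4 arrays, so the levels themselves are not in the table and probe sets cannot be ranked by abundance. A coarse level could still be read from the numerical step in which each row was stored. The step showed all 4 arrays at log2 8 or above for 14 of the 22 probe sets (high band), at least 1 array between 4 and 8 for 7 (middle band), and at least 1 array below 4 for 1 (low band), and rows simulated inside these bands were called correctly in 100%, 93.6% and 93.8% of cases. By its best probe set, each of Mmp2, Mmp3, Mmp10, Mmp14, Timp1, Timp2 and Timp3 was in the high band and Mmp9, Mmp11 and Mmp13 in the middle band. In contrast, 0 of 12 other measured family members were in the high band. The sorted identity was checked in the same way. All 8 basal markers (such as Krt5, Krt14 and Trp63) and 6 of 8 luminal markers were in the high band, against 1 of 9 fibroblast, 1 of 7 macrophage and leukocyte and 1 of 6 endothelial markers. Of all 18193 genes, 8991 were in it.

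The start regions of 5 members are shown because Mmp13, Mmp3 and Mmp10 gave some of the widest gaps between the Wnt3A arrays, while Timp1 and Timp3 were higher on both Wnt3A arrays than on both controls. Mmp13, Mmp3 and Mmp10 lie in this order in a cluster of metalloproteinase genes on chromosome 9. Each line gives the 100 bases before the annotated start, 5′ to 3′ on the gene's strand, from RefSeq on GRCm38.p6, with capitals marking matches to the AP-1 motif TGANTCA. AP-1 is the Fos and Jun family of transcription factors, long known to act at metalloproteinase promoters.
Mmp13 (chr9:7272414-7272513, plus strand): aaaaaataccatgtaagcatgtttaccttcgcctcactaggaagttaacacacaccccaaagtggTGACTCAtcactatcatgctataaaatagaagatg
Mmp3 (chr9:7445722-7445821, plus strand): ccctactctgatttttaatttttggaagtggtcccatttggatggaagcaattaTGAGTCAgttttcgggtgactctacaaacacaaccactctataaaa
Mmp10 (chr9:7502242-7502341, plus strand): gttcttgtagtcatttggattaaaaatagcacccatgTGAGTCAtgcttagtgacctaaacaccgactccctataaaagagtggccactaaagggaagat
Timp1 (chrX:20870066-20870165, plus strand): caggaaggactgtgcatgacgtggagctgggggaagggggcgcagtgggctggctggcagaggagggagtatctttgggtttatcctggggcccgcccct
Timp3 (chr10:86300312-86300411, plus strand): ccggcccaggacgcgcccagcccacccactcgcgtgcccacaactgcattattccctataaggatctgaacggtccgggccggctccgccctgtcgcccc

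Promoters of 8 members were in the RefSeq table: those above, Mmp11, Mmp14 and Timp2. Each was searched on both strands over 300 bases, from 250 before to 50 after the start. TGANTCA was found in Mmp13 (35 to 29 bases before the start), Mmp3 (46 to 40) and Mmp10 (63 to 57), and 7.81% of all 32851 promoters in the table held it. These 3 promoters also held the TATA motif TATAAAA, 16 to 10, 7 to 1 and 29 to 23 bases before the start, against 5.48% of all promoters. The Ets motif AGGAAGT, present in 9.35% of all promoters, was found in Mmp13 (62 to 56 bases before the start) and in Timp1 (175 to 169). The TCF/LEF motif CTTTGAT, the sequence read by the nuclear effectors of canonical Wnt signalling and present in 3.73% of all promoters, had no match among the 8. The motifs did not overlap each other in these promoters. A match describes the letters only.

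No member passed the test for a difference between Wnt3A and control. Limma called 0 of the 22 probe sets at an adjusted p under 0.05, with a background of 0 of 45037 (0%), and the smallest adjusted p of a member was 0.75. At an unadjusted p under 0.05 there were 2 of the 22, Timp1 and a Timp2 probe set, against 6.22% of all probe sets. An exact permutation test on 2 against 2 arrays cannot reach the threshold, and every value below is therefore a measured difference. Of the members, 9 probe sets lay higher on both Wnt3A arrays than on both controls (background 17.4%) and 1 lower (background 16.3%). The 9 were both probe sets of Mmp9, that of Mmp10, that of Timp1, 1 of 6 of Timp2 and all 4 of Timp3, so they stand for 5 genes. A group difference of at least 0.5 in favour of Wnt3A was seen for 8 of the 22, against 4.21% overall. These are related probe sets and not independent: over single genes, 4 of the 10 members lay higher on both Wnt3A arrays and 0 lower, with backgrounds of 17% and 17.5%. The median difference was 0.13 log2 units over the 10 genes and 0.00 over all genes. The medians of the luminal and basal marker lists were -0.29 and 0.28 over the same groups.

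**Figure D1:**
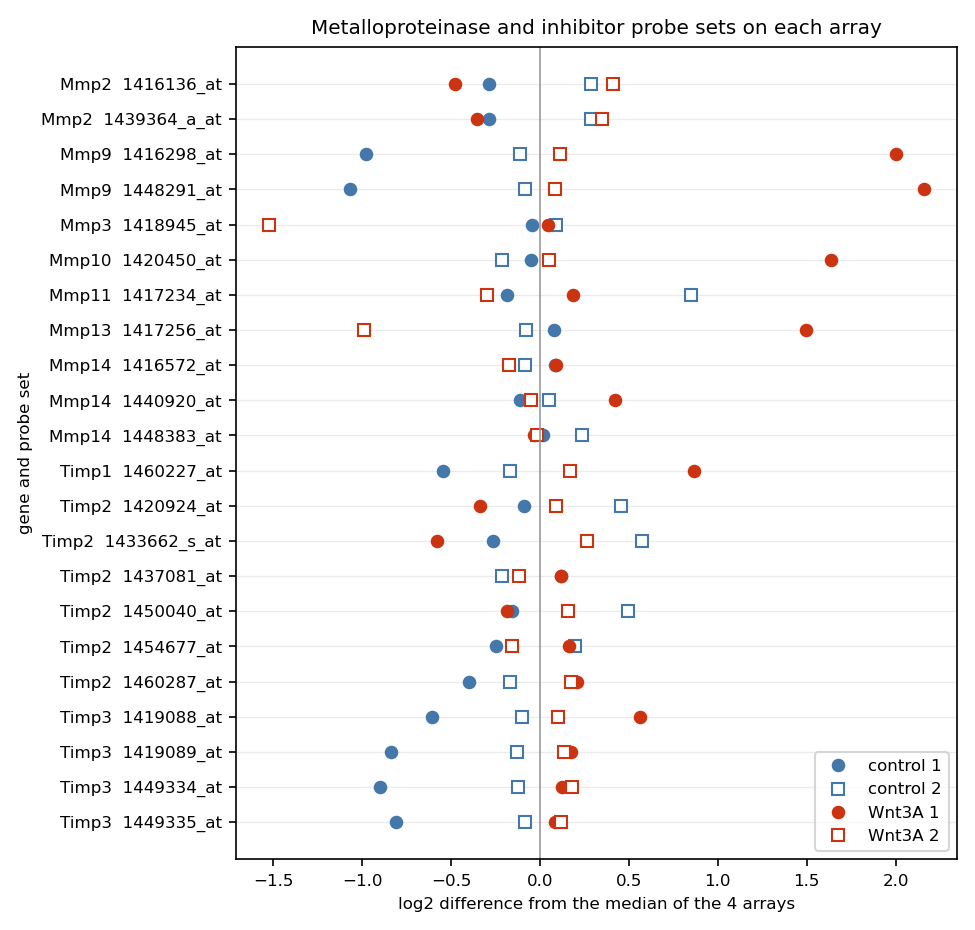
Values of the 22 probe sets on each array, as log2 difference from the median of the 4 arrays (x axis), with control arrays in blue and Wnt3A arrays in red. Wnt3A 1 sits at 2.00 and 2.16 for Mmp9 and at 1.5 for Mmp13, while Wnt3A 2 sits at -1.52 for Mmp3 and -0.99 for Mmp13.

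Among the gelatinases, which cleave denatured collagen and type IV collagen, Mmp9 had the largest positive group difference of the 10 genes. Its probe set 1416298_at read -0.98 and -0.11 on the control arrays and 2.00 and 0.11 on the Wnt3A arrays. Probe set 1448291_at read -1.07 and -0.09 against 2.16 and 0.09. Both probe sets placed Wnt3A 1 far above the other arrays and Wnt3A 2 only just above control 2. The differences were 1.60 ± 0.72 (SE, 2 arrays per group), a ratio of 3.04, and 1.70 ± 0.79, a ratio of 3.25 (limma adjusted p = 0.85 and 0.86). Without Wnt3A 1 they came to 0.66 and 0.66, and without Wnt3A 2 to 2.55 and 2.74.

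Mmp2, the other gelatinase, did not separate by group. Its probe set 1416136_at read -0.29 and 0.29 on the control arrays and -0.48 and 0.41 on the Wnt3A arrays, and 1439364_a_at read -0.29 and 0.29 against -0.35 and 0.35. Both arrays numbered 1 were thus below both arrays numbered 2, whichever the group. The group differences were -0.04 ± 0.38 and -0.00 ± 0.33 (limma adjusted p = 1 for each), and leaving out single arrays moved them between -0.48 and 0.41 and between -0.35 and 0.35.

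Stromelysins have broad substrates, including laminin and proteoglycans, and Mmp3 can also activate other zymogens. Mmp3 read -0.04 and 0.09 on the control arrays and 0.04 and -1.52 on the Wnt3A arrays. A single array stood apart: Wnt3A 2 was low and the other 3 lay within a narrow range. The difference was -0.76 ± 0.55 (limma adjusted p = 0.94), and 0.02 without Wnt3A 2. Mmp10, which encodes stromelysin-2, read -0.05 and -0.21 against 1.64 and 0.05, so that here Wnt3A 1 was high and Wnt3A 2 was close to the controls. Its difference was 0.98 ± 0.56 (limma adjusted p = 0.90), and 0.19 without Wnt3A 1. Mmp11, stromelysin-3, is known mainly from stromal cells. It read -0.19 and 0.85 on the control arrays and 0.19 and -0.30 on the Wnt3A arrays, so the groups overlapped and control 2 was the highest. The difference of -0.39 ± 0.41 (limma adjusted p = 0.98) came to 0.13 without control 2.

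Mmp13, a collagenase that cleaves fibrillar collagen, had the widest gap between arrays of the same group among the 10 genes. It read 0.08 and -0.08 on the control arrays and 1.5 and -0.99 on the Wnt3A arrays. The controls were nearly equal, and the Wnt3A arrays lay on opposite sides of them. The difference of 0.25 ± 0.86 (limma adjusted p = 1) turned to -0.99 without Wnt3A 1 and came to 1.5 without Wnt3A 2.

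Mmp14, the membrane-anchored enzyme that activates the Mmp2 zymogen together with Timp2, varied least of the 10 genes as the mean of its probe sets. Probe set 1416572_at read 0.09 and -0.09 on the control arrays and 0.09 and -0.17 on the Wnt3A arrays. In 1440920_at the values were -0.11 and 0.05 against 0.42 and -0.05. In 1448383_at they were 0.02 and 0.23 against -0.03 and -0.02, which put both Wnt3A arrays just below both controls. The 3 probe sets did not share a direction, and their differences were -0.04 ± 0.16, 0.22 ± 0.20 and -0.15 ± 0.14 (limma adjusted p of 0.96 or more).

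**Figure D2:**
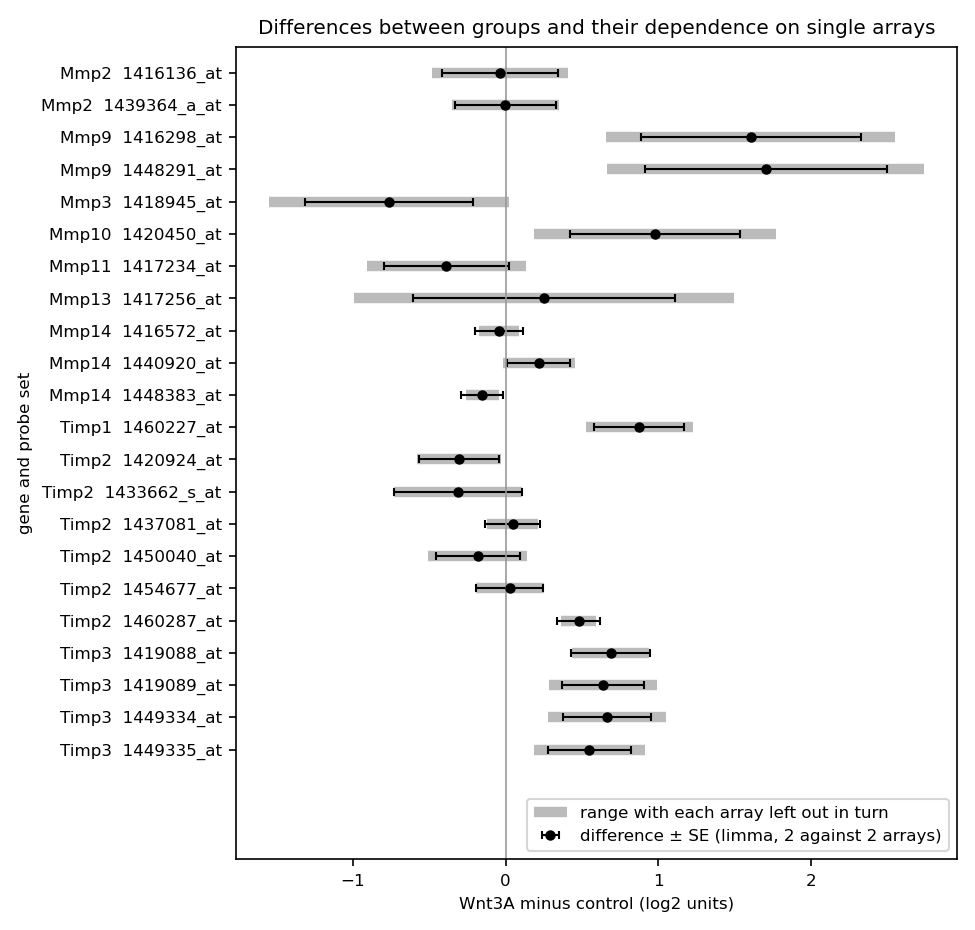
Wnt3A minus control in log2 units for each probe set (points, with SE from limma on 2 against 2 arrays) and the range of this difference over the fits that leave out 1 array (grey bars). The bars of Mmp9, Mmp10, Timp1, Timp3 and Timp2 1460287_at stay above 0, which they must where both Wnt3A arrays lie above both controls. The bar of Mmp13 runs from -0.99 to 1.5.

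Of the inhibitors, Timp1, which also binds the zymogen of Mmp9, lay higher on both Wnt3A arrays. It read -0.55 and -0.17 on the control arrays and 0.87 and 0.17 on the Wnt3A arrays. The groups did not overlap, and Wnt3A 1 was again the highest array. The difference was 0.87 ± 0.29, a ratio of 1.83 (unadjusted p = 0.038, limma adjusted p = 0.78), and it ranged from 0.53 without Wnt3A 1 to 1.22 without Wnt3A 2.

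Timp3, the inhibitor held in the matrix, which also blocks Adam17 and aggrecanases, gave a similar pattern in each of its probe sets. Probe set 1449334_at read -0.90 and -0.13 on the control arrays and 0.13 and 0.18 on the Wnt3A arrays. The other 3 probe sets ran from -0.84 to -0.61 in control 1, from -0.13 to -0.08 in control 2, from 0.08 to 0.56 in Wnt3A 1 and from 0.10 to 0.13 in Wnt3A 2. In all 4 probe sets control 1 was the lowest array and the controls lay below both Wnt3A arrays. The differences were 0.55 to 0.69 (SE 0.26 to 0.29, limma adjusted p 0.81 to 0.87), and 0.18 to 0.43 without control 1. The 4 probe sets report the same transcripts on the same arrays and are not 4 observations.

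Timp2, which both inhibits metalloproteinases and takes part in Mmp2 activation by Mmp14, gave different answers by probe set. Probe set 1460287_at read -0.40 and -0.17 on the control arrays and 0.21 and 0.17 on the Wnt3A arrays, with groups that did not overlap and a difference of 0.48 ± 0.14 (unadjusted p = 0.024, limma adjusted p = 0.75). Its difference stayed between 0.36 and 0.59 when each array was left out. In 1420924_at, 1433662_s_at and 1450040_at, control 2 was the highest array and Wnt3A 1 the lowest, and the differences were -0.31 ± 0.26, -0.31 ± 0.42 and -0.18 ± 0.28. The remaining probe sets, 1454677_at and 1437081_at, gave 0.03 ± 0.22 and 0.05 ± 0.18, and 1437081_at was the only member probe set in the low band. The mean of all 6 was -0.04 ± 0.18. Affymetrix marks sets ending in _s_at as matching more than a single transcript.

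The wide gaps between the Wnt3A arrays were counted after these values had been seen. Wnt3A 1 exceeded Wnt3A 2 by at least 1 log2 unit in 5 of the 22 probe sets, against 0.744% of all probe sets, and in 4 of the 10 genes (Mmp13 by 2.49, Mmp9 by 1.98, Mmp10 by 1.58 and Mmp3 by 1.57) against 0.66% of all genes. No member showed a gap of this size in the opposite direction, the nearest being Mmp2 1416136_at at -0.89. The share of all probe sets with such an opposite gap is not given here. Between the controls these 4 genes were 0.13 to 0.93 apart. The 4 genes reached their gaps differently: Mmp9 and Mmp10 were high in Wnt3A 1, Mmp3 was low in Wnt3A 2, and Mmp13 was both. Within the groups, the typical gap between the Wnt3A arrays was 0.89 for metalloproteinase probe sets and 0.32 for inhibitor probe sets (medians of absolute gaps), against 0.19 for all probe sets. Between the controls the same medians were 0.21 and 0.55, against 0.18.

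**Figure D3:**
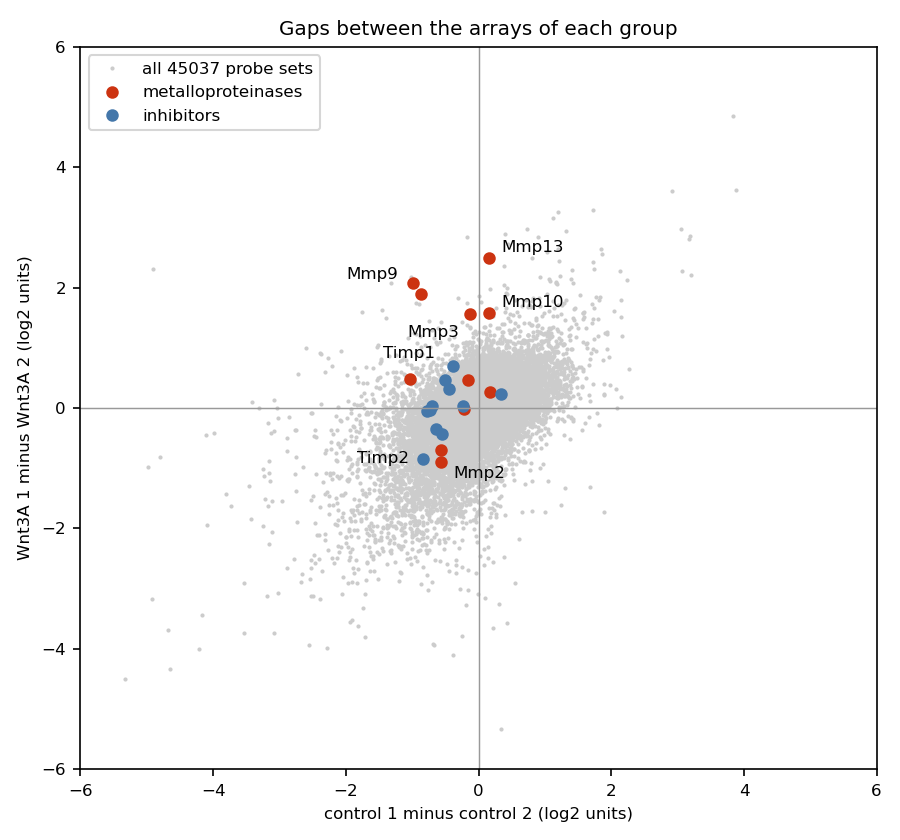
Gap between the 2 control arrays (x axis) against the gap between the 2 Wnt3A arrays (y axis), both in log2 units, for all 45037 probe sets (grey), metalloproteinases (red) and inhibitors (blue). Mmp13, Mmp9, Mmp10 and Mmp3 lie at 1.57 or more on the y axis, and the inhibitors lie between -0.84 and 0.70.

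Other patterns across arrays were counted over the probe sets, several of which report the same gene. Control 1 was the lowest array for 10 of the 22 probe sets (background 22.2%), among them both of Mmp9, Timp1 and all of Timp3. Both arrays numbered 1 lay below both arrays numbered 2 for 5 of the 22, close to the background of 17%, namely the 2 probe sets of Mmp2 and 3 of Timp2. As gene means, control 1 was the lowest array for 4 of the 10 members. Both arrays numbered 1 lay below both numbered 2 for 2 of the 10. The shares of all genes with these patterns are not given here, so the counts by gene cannot be judged against them. The labels do not say what the numbers stand for.

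Markers of other cells that make these enzymes were compared over the same arrays. In fibroblast markers the Wnt3A 1 minus Wnt3A 2 gap ran from -0.58 (Col1a2) to 0.66 (Col3a1), and the list's median over its 9 genes read 0.00 and -0.00 on the control arrays and 0.04 and 0.00 on the Wnt3A arrays. For the 7 macrophage and leukocyte markers the gap ran from -0.34 to 0.30 and for the 6 endothelial markers from -0.23 to 0.62. None of these 22 markers had a gap of 1 log2 unit. Of all genes, 0.66% had Wnt3A 1 above Wnt3A 2 by that much, so 0 of 22 is near the background. Most of these markers were also outside the high band. Over the 8 luminal markers the median gap was 0.09 and the range -1.18 to 1.81, with 6 of 8 higher in Wnt3A 1. Elf5, a regulator of alveolar luminal cells, and Krt19, a luminal keratin, were 1.81 and 1.59 higher in Wnt3A 1 than in Wnt3A 2, while Foxa1 was 1.18 lower. Over the 8 basal markers the median gap was -0.16, from -1.02 for Trp63 to 0.34 for Krt5, with 3 of 8 higher in Wnt3A 1. For comparison, the median gap over all genes was 0.06, and 11009 of 18193 were higher in Wnt3A 1. Elf5, Krt19, Foxa1 and Trp63, the markers with a gap of 1 log2 unit or more, were chosen with their values in view. Group differences were measured for the same markers, with 0 past the adjusted threshold. Luminal markers had a median Wnt3A minus control difference of -0.29, with 0 of 8 higher and 3 lower on both Wnt3A arrays (17% and 17.5% of all genes): Foxa1 (-2.34 ± 0.48, limma adjusted p = 0.48), Krt19 (-1.71 ± 0.80) and Kit (-0.74 ± 0.33). Without Wnt3A 2, Krt19 came to -0.91 and Kit to -0.30, and without control 2 Krt19 came to -0.83. Kit is a mean of 2 probe sets and came to -0.08 with its highest level band alone. The luminal differences ran from -2.34 to 0.23, with the keratins Krt8 (0.23) and Krt18 (0.17) above 0. Basal markers had a median of 0.28, with 1 of 8 higher and 1 lower, and ran from -0.09 for Itga6 to 0.79 for Myh11, which came to -0.17 without control 1. The part that luminal and basal composition plays in the metalloproteinase gaps, or in the group differences of Mmp9, Mmp10, Timp1 and Timp3, was not tested. Fewer cells of a type and less RNA per cell cannot be told apart in such samples.

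The rest of the family spanned a narrower range of differences, from -0.16 to 0.19. Of 17 further family genes listed, 12 had a probe set with a single symbol. As gene means over all probe sets, 1 was higher and 2 were lower on both Wnt3A arrays, 0 passed limma at an adjusted p under 0.05 (background 0% of 18193 genes) or at an unadjusted p under 0.05 (background 7.37%), and the median difference was -0.01. The shares of all genes higher and lower on both Wnt3A arrays were 17% and 17.5%. The members furthest apart were Timp4, a further inhibitor (0.19 ± 0.11), Mmp12, macrophage elastase (-0.16 ± 0.12), Mmp17, a membrane-type enzyme (-0.13 ± 0.15, and 0.02 without control 2), and Mmp7, matrilysin (-0.12 ± 0.12). Without Wnt3A 2, Mmp12 came to -0.07 and Mmp7 to -0.06. Mmp12 was in the low band and the other 3 in the middle band.

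Genes that activate, anchor or clear the enzymes had a median difference of 0.12 over 23 measured genes, with 9 higher (17% of all genes) and 3 lower (17.5%) on both Wnt3A arrays. There were 5 at an unadjusted p under 0.05 (7.37% of all genes) and 0 past the adjusted threshold. The furthest were Plaur, the urokinase receptor (1.58 ± 0.27, limma adjusted p = 0.44), Plau, urokinase, which generates plasmin, an activator of metalloproteinase zymogens (1.52 ± 0.71), Serpinb2, a urokinase inhibitor (1.46 ± 0.29), and Lcn2, a lipocalin that forms a complex with the Mmp9 protein (-0.90 ± 0.80). Plau read -2.19 and -0.13 on the control arrays and 0.13 and 0.61 on the Wnt3A arrays, and its difference came to 0.50 without control 1. Lcn2 read 0.71 and -0.35 on the control arrays and 0.35 and -1.79 on the Wnt3A arrays. Without Wnt3A 2 its difference turned to 0.17. It thus had a gap of 2.14 between the Wnt3A arrays in the same direction as Mmp9. Of the 23 partners, 2 had Wnt3A 1 above Wnt3A 2 by at least 1, against 0.66% of all genes. The other was Thbs2, a thrombospondin involved in clearance of metalloproteinases, picked out for its gap (1.64). Reck, a membrane-anchored inhibitor of metalloproteinases, likewise named after its values were seen, read 0.06 and 0.96 on the control arrays and -0.43 and -0.06 on the Wnt3A arrays, a difference of -0.76 ± 0.34 (limma adjusted p = 0.75), and -0.31 without control 2.

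Of the transcription factors known at metalloproteinase promoters, 15 were measured, with a median of -0.03, 4 higher and 3 lower on both Wnt3A arrays (17% and 17.5% of all genes), 2 at an unadjusted p under 0.05 (7.37% of all genes) and 0 past the adjusted threshold. Fosl1, an AP-1 subunit, read -0.46 and -0.31 on the control arrays and 0.27 and 0.50 on the Wnt3A arrays, a difference of 0.77 ± 0.14 (limma adjusted p = 0.45). The AP-1 subunits Fos (-0.61 ± 0.34) and Fosl2 (0.45 ± 0.28) and the Ets factor Etv5 (-0.86 ± 0.55) had overlapping groups. Fos came to -0.18 without control 2, and Fosl2 and Etv5 to 0.10 and -0.16 without control 1. No factor in this list had a gap of 1 log2 unit between the Wnt3A arrays, the range being -0.53 to 0.84. The share of all genes with Wnt3A 1 above Wnt3A 2 by that much was 0.66%, so 0 of 15 is near the background.

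Matrix substrates had a median of 0.22 over 22 measured genes, with 7 higher and 1 lower on both Wnt3A arrays, against 17% and 17.5% of all genes. Of these 22, 4 had an unadjusted p under 0.05 (7.37% of all genes) and 0 passed the adjusted threshold. The proteoglycan gene Bgn differed by -1.81 ± 0.70, fibronectin, Fn1, by 1.38 ± 0.75 and tenascin C, Tnc, by 1.37 ± 0.95. Control 1 was far the lowest array for Fn1 (-1.98) and Tnc (-2.35), and without it their differences came to 0.36 and 0.07. Bgn came to -1.17 without control 2 and to -0.998 without Wnt3A 2. Wnt3A 1 exceeded Wnt3A 2 by at least 1 log2 unit in 2 of the 22 substrates, against 0.66% of all genes. These were Bgn (1.62) and Lama1 (1.39), the latter named for its gap. In the opposite direction, the Wnt3A 1 minus Wnt3A 2 gap of Tnc was -1.13. Col4a2, a chain of the basement membrane collagen that gelatinases cleave, read -0.22 and -0.33 on the control arrays and 0.96 and 0.22 on the Wnt3A arrays, a difference of 0.86 ± 0.27 (limma adjusted p = 0.62), and 0.49 without Wnt3A 1.

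**Figure D4:**
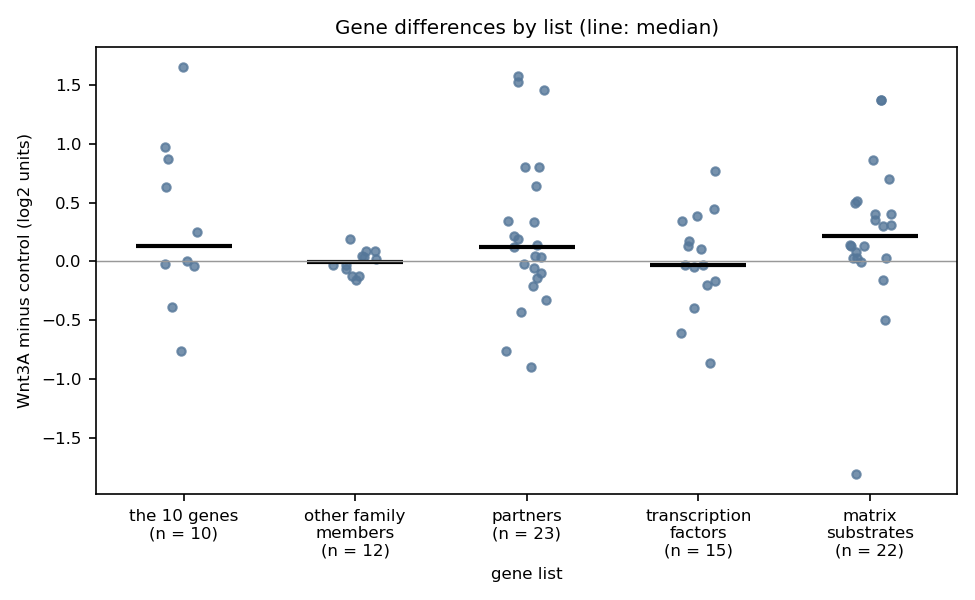
Wnt3A minus control in log2 units (y axis) for the 10 genes and for the other gene lists, each point a gene as the mean of its probe sets and each line a median. The 12 other family members, none in the high band, lie between -0.16 and 0.19. The 10 genes, chosen with earlier results of these data known, run from -0.76 to 1.65.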

How the data were processed

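Per the submitters' processing notes, the authors used RMA, and no version is given. The deposited values are log2 values, each minus the median of its row over the 4 arrays: every one of the 45101 rows had a median of 0. This centring is not described in the sources used here, and it leaves differences between arrays unchanged. Array medians were between -0.016 and 0.02. After leaving out 64 array controls, each of 45037 probe sets was fitted in R 4.3.3 with limma 3.58.1 (functions lmFit and eBayes; two-sided p-values adjusted over all of them by Benjamini-Hochberg; threshold 0.05; 2 residual and 2.3 prior degrees of freedom; no filter). Standard errors come from this fit. Gene lists used the mean of all probe sets with a single symbol, over 18193 genes. On simulated data the fit over 45037 probe sets recovered 0% of changes of 1 log2 unit, 37.3% of 2 and 69.7% of 3 for Wnt3A against control. Level bands came from whether values were multiples of the storage step (tolerance 0.02 of a step). Figures were drawn with matplotlib 3.10.9.

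The members and lists were chosen with earlier results of these data known. Named genes are all 10 members and, per list, the 4 largest absolute differences, with the others marked in the text.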

Additional observations from a re-analysis of the deposited data

How the results depend on the processing

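Alternatives were other probe set selections, level band filters, array centring, quantile normalization, robust eBayes, a replicate block, gene means and each array left out, which takes the lone array to be as variable as the other group. Limma called 0 member probe sets and 0 of all probe sets under each, and also at an adjusted p under 0.10, while 2801 had an unadjusted p under 0.05. Of 277 member values, 250 kept their direction and 27 reversed. Probe set selection, level band filters, robust eBayes and the replicate block leave a difference unchanged, so those values could not reverse. All 27 reversals came from gene means or from the 88 values with 1 array left out. Timp1, Timp3, Mmp9, Mmp10 and Timp2 1460287_at kept their direction except that Timp2's gene mean was -0.041. With both Wnt3A arrays above both controls, leaving out 1 array could not reverse them, so this restates that the groups did not overlap. The counts of members above or below both controls, and with a gap of 1 between Wnt3A arrays, were the same after centring or quantile normalization. Over all probe sets the shares above and below were 17.4% and 17.1% after centring and 17.5% and 17% after quantile normalization. The share with the gap of 1 was 0.688% and 1.29%, against 0.744% in the main values. A gap of 0.5 gave 6 (5.73% of all probe sets) and of 1.5 gave 5 (0.251%), both alternatives chosen after seeing the data.

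The means of all probe sets and of those in the highest band were 0.0074 and 0.033 for Mmp14, opposite to 1416572_at and 1448383_at, and -0.041 and 0.0029 for Timp2, the first opposite to 1437081_at, 1454677_at and 1460287_at, the second to 1420924_at, 1433662_s_at and 1450040_at.

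With arrays left out, the reversed values ran from 0.25 to 0.41 for Mmp2 1416136_at and from 0.28 to 0.35 for 1439364_a_at, with full ranges of -0.48 to 0.41 and -0.35 to 0.35. The ranges were -1.55 to 0.021 for Mmp3, -0.91 to 0.13 for Mmp11 and -0.99 to 1.5 for Mmp13. For Mmp14 they were -0.17 to 0.089 (1416572_at) and -0.018 to 0.45 (1440920_at), and for Timp2 -0.73 to 0.11 (1433662_s_at), -0.12 to 0.21 (1437081_at), -0.51 to 0.14 (1450040_at) and -0.19 to 0.25 (1454677_at). Medians of the lists ran from -0.073 to 0.037 for the other family members, 0.035 to 0.21 for partners, -0.031 to 0.063 for transcription factors and 0.12 to 0.30 for substrates. Fewer arrays entered these fits; the cause of each shift was otherwise not tested.

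Arrays with the same number deviated together (correlation of control 1 minus control 2 with Wnt3A 1 minus Wnt3A 2 of 0.526 over all probe sets), but the labels do not state a pairing. With the replicate block, 0 probe sets were called, the smallest adjusted p of a member was 0.43 (Timp2 1460287_at, 0.48 ± 0.13), and those of Timp3 were 0.46 to 0.51. Only 2 arrays per group limit the precision.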

Other observations

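The chromosome 9 cluster was looked at further because Mmp13, Mmp3 and Mmp10 differed so much between the Wnt3A arrays. In RefSeq order its protein-coding genes are Mmp13, Mmp12, Mmp1b, Mmp3, Mmp1a, Mmp10, Mmp8, Mmp27, Mmp20 and Mmp7, of which Mmp27 had no probe set with a single symbol. The Wnt3A 1 minus Wnt3A 2 gap was 0.17 for Mmp12, 0.16 for Mmp1b, 0.07 for Mmp1a, 0.21 for Mmp8, 0.10 for Mmp20 and 0.12 for Mmp7, against 1.57 to 2.49 for Mmp3, Mmp10 and Mmp13. Those 6 genes were in the low or middle band. The genes on either side of the cluster were Dync2h1 (gap of 0.10) and Dcun1d5 (-0.25) before Mmp13, and Tmem123 (-0.28), Birc2 (-0.62), Birc3 (0.17) and Yap1 (-0.07) after Mmp7.

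Mmp23, a family member outside this cluster, varied in the opposite sense. It read -0.92 and 0.74 on the control arrays and -0.52 and 0.52 on the Wnt3A arrays, so arrays of the same number resembled each other more than arrays of the same group.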
